A study of Mus musculus with 6 samples.

Results

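The 38 genes described here encode the enzymes of glycolysis, the mitochondrial entry and oxidation of pyruvate, the citrate cycle and the malate-aspartate shuttle. They were taken by name from a count table of 25239 mouse genes, and all 38 had a row. Of these, 15 belong to glycolysis and 23 to pyruvate oxidation, the citrate cycle and the shuttle. RNA was measured in 6 libraries of mouse oocytes at the germinal vesicle stage, the arrested stage at which the nucleus is still intact. In 3 libraries the label names a water-injected oocyte, and in 3 a phthalate-injected oocyte. The phthalate was a mixture of phthalate metabolites, the products the body makes from phthalate plasticizers. All oocytes came from CD-1 females, an outbred strain, of 4 to 6 weeks of age. The injected oocytes were cultured within cumulus-oocyte complexes, still wrapped in follicle cells. The maturation medium held 10% serum, 200 mIU/mL follicle-stimulating hormone and 50 µg/mL sodium pyruvate. The oocytes were collected still at the germinal vesicle stage. The labels give neither the dose nor the composition of the mixture, and they name no animal or culture for any library, and the protocol can be read as 1 oocyte per group. Each group was therefore treated as 1 sample. No p-value is given, the values of the single libraries are a description, and a difference between the groups cannot be told apart from one between animals or cultures. The libraries of a group are called oocytes 1 to 3 here after their replicate numbers. Whether they come from different oocytes is not established, so a spread between them may not be a spread between oocytes.

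Glycolysis splits glucose into pyruvate in the cytosol. Pyruvate is either exchanged with lactate by lactate dehydrogenase or carried into the mitochondrion, where the pyruvate dehydrogenase complex turns it into acetyl-CoA for the citrate cycle. The malate-aspartate shuttle brings the reducing power of the cytosol into the mitochondrion. Mouse oocytes are known to use pyruvate rather than glucose as their main fuel, and the surrounding cumulus cells, which are strongly glycolytic, supply it.

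The libraries held from 252267 to 300917 gene counts each, 1676410 in all. Small counts were mostly even, with 68.0% to 71.1% of the counts from 1 to 20 being even, as would be seen if each mate of a pair were counted. Counting intervals were therefore computed on counts halved to pairs. All 10 oocyte markers had counts, and their sum ranged from 6226 to 7783 per library. Of 20 cumulus and granulosa markers, 10 were at 0 in every library, and the sum over all 20 ranged from 10 to 39 counts per library. Most of it was Nr5a2, without which the sum ranged from 0 to 10. Fewer cells of a type and less RNA per cell cannot be told apart in such sums.

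Lactate dehydrogenase B had the highest level of the 38 members by far. Levels of different genes were compared as CPM (counts scaled to a library total of 1000000) per kb of the longest annotated transcript. Ldhb had a mean level of 6299 CPM per kb over the 6 oocytes, with a range from 4469 to 6986. Pkm, which encodes the pyruvate kinase that makes pyruvate, followed at 247.9 (214.5 to 280.7), and Pdhx, which anchors a subunit of pyruvate dehydrogenase, at 84.8 (63.3 to 110.3). Tpi1, the triose phosphate isomerase gene, had a level of 79.8 and Aldoa, an aldolase gene, 68.9. In the order of the 20 members that passed the filter on low counts, the ranges over oocytes overlapped in 16 of 19 neighbouring pairs. The exceptions were Ldhb above Pkm, Pkm above Pdhx, and Ogdh above Pfkp at the end of the order. Ldhb and Pkm kept the first 2 places when the median transcript length was used, with 9957 and 811.4 CPM per kb. The order behind them changed with the length, and Sucla2, Dlst and Fh1 then came before Tpi1. Pfkp (32.9) then came before Ogdh (20.9).

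**Figure D1:**
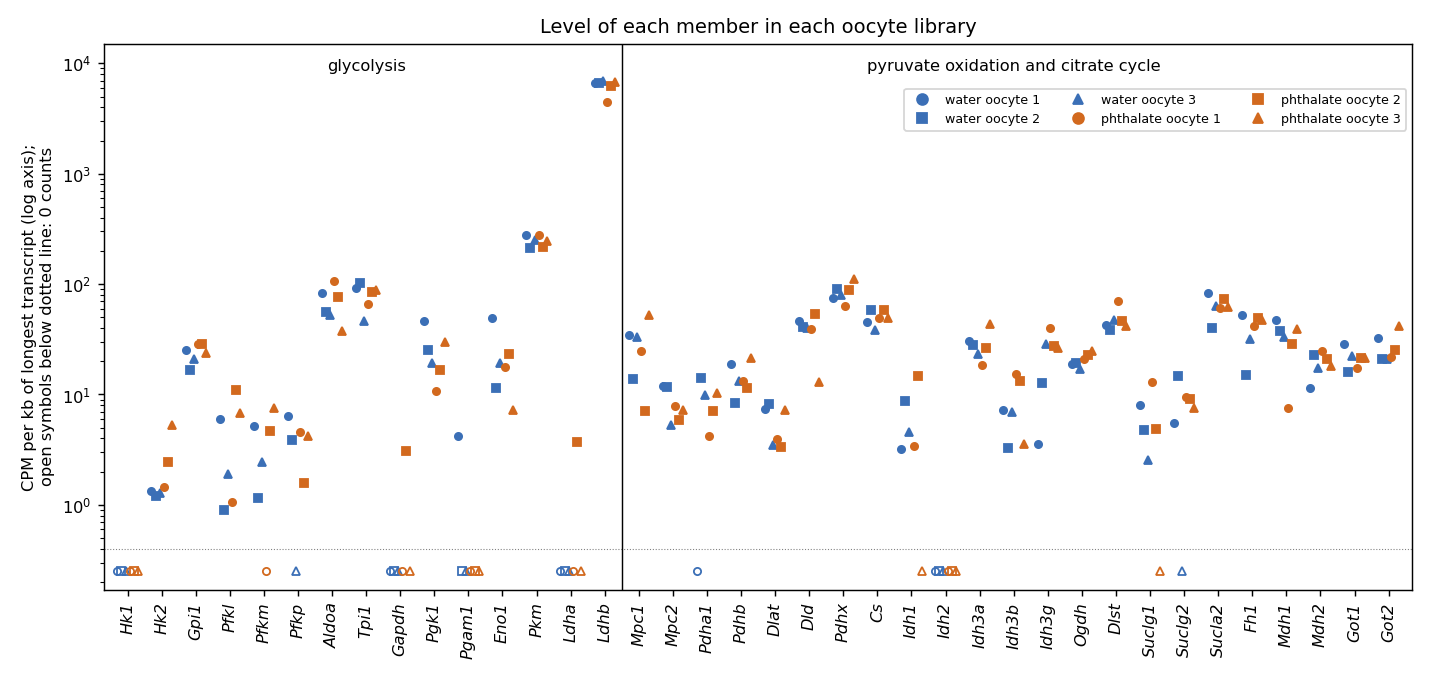
Level of each of the 38 members in each of the 6 oocyte libraries, as CPM per kb of the longest transcript on a log axis, with glycolysis on the left and pyruvate oxidation and the citrate cycle on the right. Ldhb lies between 4469 and 6986 in every oocyte and Pkm between 214.5 and 280.7, while Hk1 and Idh2 have 0 counts in all 6.

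The subunits of lactate dehydrogenase differed the most. The enzyme is a tetramer of A and B subunits, and the B form is known to favour the use of lactate and the A form its production. Ldhb had 2355, 2628 and 2585 counts in water oocytes 1 to 3, against 1470, 2389 and 2414 in phthalate oocytes 1 to 3. It was among the 7 genes with the most counts in each library, out of 25239. Ldha had 2 counts in phthalate oocyte 2 and 0 in the other 5 libraries. The testis form Ldhc had 28 counts in all, between 0 and 11 per library. Ldhd, which encodes a mitochondrial enzyme for the D form of lactate, had from 4 to 16 counts per library. Ldhb thus held 13841 of the 13843 counts of Ldha and Ldhb together and from 83.5% to 90.8% of all glycolytic counts of a library.

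The 250 bases before the annotated start of Ldhb and Ldha are shown because these subunits of 1 enzyme had the highest and almost the lowest level of all members. Ldhb lies on chromosome 6 (GRCm38, 142490249 to 142507957, minus strand) and Ldha on chromosome 7 (46841475 to 46855627, plus strand). Sequences are from the RefSeq table of GRCm38.p6, 5′ to 3′ along the gene's strand, at chr6:142507958-142508207 for Ldhb and chr7:46845554-46845803 for the first Ldha start in that table, which lies inside the span given above. Capitals mark matches, on either strand, to the E-box CANNTG, the core ACGTG of the hypoxia response element, the GC box GGGCGG, the letters CCAAT of the box of that name or the letters TATAAA of the TATA box.
Ldhb: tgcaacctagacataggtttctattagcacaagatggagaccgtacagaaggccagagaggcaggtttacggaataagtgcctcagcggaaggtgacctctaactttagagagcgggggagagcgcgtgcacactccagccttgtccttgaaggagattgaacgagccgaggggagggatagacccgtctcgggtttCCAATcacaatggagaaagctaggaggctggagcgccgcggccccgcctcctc
Ldha: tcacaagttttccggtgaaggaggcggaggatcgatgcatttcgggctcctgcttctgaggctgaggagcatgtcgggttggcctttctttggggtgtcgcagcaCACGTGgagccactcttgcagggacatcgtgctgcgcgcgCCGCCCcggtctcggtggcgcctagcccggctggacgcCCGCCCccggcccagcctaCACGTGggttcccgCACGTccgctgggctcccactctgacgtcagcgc
The Ldha window held 5 matches to ACGTG, of which 4 are the 2 strands of 2 E-boxes with the letters CACGTG, and 2 matches to GGGCGG. The Ldhb window held 1 match to CCAAT and none to the other 4 motifs. Of 27025 promoter windows of the same length, 66% held CANNTG, 16.6% ACGTG, 32.9% GGGCGG, 34.5% CCAAT and 13% TATAAA. Among the 37 members with an entry, 25 held CANNTG, 9 ACGTG, 21 GGGCGG, 18 CCAAT and 1 TATAAA. A match is a description of the letters in this window and no evidence of binding.

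The hexokinase and phosphofructokinase steps had few counts in these libraries, which were primed with oligo(dT). Hk1, the hexokinase gene of most tissues, had 0 of 1676410 counts. A level of 1.79 CPM would be 3 deposited counts, and a limit on counts halved to pairs would be higher. Hk2, the hexokinase known from muscle and tumours, had 2, 2 and 2 counts with water against 2, 4 and 8 with phthalate. Phosphofructokinase commits sugar to glycolysis, and its 3 genes had 29 (Pfkl), 17 (Pfkm) and 49 (Pfkp) counts over all libraries. Reads of Pfkm and Pfkp cannot be told apart from those of the antisense neighbours Senp1 and Pitrm1 where exons overlap, since the use of strand is not given in the sources used here. In all, 12 members have an exon overlap with an antisense gene.

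The isomerase between these steps, the aldolase and triose phosphate steps and pyruvate kinase were better covered. Gpi1, which encodes the isomerase after hexokinase, had 81.6, 53.2 and 67.0 CPM with water against 91.2, 91.5 and 76.4 with phthalate. Aldoa had 129.9, 86.4 and 81.0 CPM against 166.5, 118.6 and 58.2, so that both its highest and its lowest value were in phthalate oocytes. Tpi1 had 148.4, 162.8 and 74.0 CPM in water and 107.0, 135.6 and 141.9 in phthalate oocytes. The groups overlapped for all 3 genes. Pkm was the steadiest of the 13 members with a mean count of at least 20, with 682.8, 521.7 and 609.6 CPM in water and 677.9, 528.7 and 596.5 in phthalate oocytes. Its highest value was 1.31 times its lowest, against a median of 1.84 times over the 13 members. The counts per gene do not separate the M1 and M2 forms of this kinase.

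Several enzymes of lower glycolysis were at or near 0. Gapdh, which encodes glyceraldehyde-3-phosphate dehydrogenase, had 3 counts in phthalate oocyte 2 and 0 in the other libraries. Its exons overlap those of the antisense gene Iffo1, which had 34 counts over all libraries. Pgam1, a phosphoglycerate mutase gene, had 2 counts in water oocyte 1 alone. Near-identical copies are common for these genes. In GENCODE M21, 76 other genes share at least 150 bases of the Gapdh coding sequence at 95% identity or more, as do 3 for Ldha, 1 for Pgam1 and 4 for Pgk1. Only 5 of the 97 copies of all members had a row in the table, and the 3 rows for Gapdh copies held 0 counts. How reads that fit several copies were counted is not given in the sources used here, so the values of Gapdh, Ldha and Pgam1 are uncertain, and the part of such reads was not tested. Hk1 and Idh2, also at 0, have no such copy. Eno1, which encodes the enolase of most tissues, had 72 counts in all (45 with water, 27 with phthalate), and its copy Eno1b, 99.4% identical over 1302 bases, had 41, at 8, 8 and 3 with water and 8, 10 and 4 with phthalate.

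The gene next to these steps with the most counts was Bpgm. It encodes bisphosphoglycerate mutase, which makes 2,3-bisphosphoglycerate and can also act as a mutase of glycolysis. Bpgm had 3581, 3566 and 3616 CPM with water against 2676, 3210 and 3510 with phthalate. Per kb it stood at 1513 CPM, and the ratio of its summed counts per kb to those of Pkm was 6.16 (4.32 to 7.49 over the libraries). Pgam2, the muscle mutase gene, had 0 counts.

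Pyruvate enters the mitochondrion through a carrier of the proteins encoded by Mpc1 and Mpc2, which had 44 and 56 counts over all libraries. In the pyruvate dehydrogenase complex the members differed widely. Pdhx had 189.2, 226.0 and 200.9 CPM with water against 158.6, 223.7 and 276.4 with phthalate. Dld, which encodes the dehydrogenase subunit shared with the oxoglutarate complex, had 118.7, 103.0 and 102.2 against 99.1, 135.6 and 32.7 CPM. Phthalate oocyte 3 was thus the highest for Pdhx and the lowest for Dld. The catalytic core genes Pdha1, Pdhb and Dlat had 37, 57 and 38 counts. Per kb of the longest transcript Pdhx stood above Dlat in every library, at 10.3 to 26.6 times, and 15.2 times in the sums. With the median transcript length the ratio was 2.94, so its size rests on the length used. Pdha2, the testis copy of Pdha1, had 10 counts. Of the kinases that switch the complex off, Pdk3 had the most counts, 49 in water and 39 in phthalate oocytes, and Pdk4 had 0.

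The citrate cycle was represented at most steps. Cs, citrate synthase, opens the cycle and had 137.3, 176.1 and 116.3 CPM in water and 146.7, 176.2 and 149.1 in phthalate oocytes. Isocitrate is oxidised by the NAD-linked enzyme of Idh3a, Idh3b and Idh3g, while Idh1 and Idh2 encode NADP-linked enzymes of the cytosol and the mitochondrion. Idh3a had 77.9, 73.1 and 59.9 CPM in water and 47.6, 67.8 and 112.8 in phthalate oocytes. Idh1 had 23 counts in all and Idh2 had 0, again below the 1.79 CPM of 3 deposited counts. The reads of Idh3b (28 counts) may be shared with the antisense gene Nop56 (210 counts).

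At the oxoglutarate step, Dlst had 137.3, 123.0 and 151.5 CPM in water and 226.0, 149.1 and 134.6 in phthalate oocytes. Dlst encodes the succinyltransferase core of the complex, and Ogdh its first enzyme. The next enzyme, succinyl-CoA ligase, pairs the shared subunit of Suclg1 with an ATP-forming partner (Sucla2) or a GTP-forming partner (Suclg2). Sucla2 had 185.5, 89.7 and 141.0 CPM in water and 134.8, 162.7 and 138.2 in phthalate oocytes. Suclg2 had 18.6, 49.8 and 0 against 31.7, 30.5 and 25.5 CPM. Per kb, the summed Sucla2 counts were 8.14 times those of Suclg2, or 9.34 times with the median transcript length, and Sucla2 was the higher in all 6 libraries. Suclg1 had only 25 counts. Fh1, which encodes fumarase, had 137.3, 39.9 and 84.6 CPM in water and 111.0, 128.8 and 123.7 in phthalate oocytes, and water oocyte 2 was the lowest.

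Malate dehydrogenase and aspartate aminotransferase each have a cytosolic form (Mdh1, Got1) and a mitochondrial form (Mdh2, Got2), which together run the shuttle. The counts over all libraries were 116 for Mdh1, 52 for Mdh2, 73 for Got1 and 115 for Got2. Per kb the sum of Mdh1 was 1.69 times that of Mdh2 (2.60 times with the median transcript length), and the sum of Got2 was 1.28 times that of Got1. The order of the forms was not the same in every oocyte, since Mdh1 was below Mdh2 in phthalate oocyte 1 and Got2 below Got1 in water oocyte 3.

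The glycolytic members took 0.992% of all gene counts of the water libraries (95% exact binomial interval 0.963 to 1.02) and 0.871% (0.843 to 0.900) of those of the phthalate libraries. By oocyte the shares were 1.01%, 0.967% and 1.00% in water and 0.698%, 0.915% and 0.984% in phthalate oocytes. The groups overlapped, and phthalate oocyte 1 was the lowest. The difference of -0.121 percentage points was -0.0441 without phthalate oocyte 1. The pyruvate and citrate cycle members took 0.142% (0.131 to 0.154) with water and 0.156% (0.144 to 0.168) with phthalate. By oocyte these were 0.155%, 0.138% and 0.134% in water and 0.146%, 0.160% and 0.161% in phthalate oocytes, which overlapped as well. Intervals cover counting error only, and PCR copies are not independent molecules.

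Within a library, the ratio of the sums of both classes needs no scaling between libraries. Water oocytes had 6.51, 6.998 and 7.48 glycolytic counts per pyruvate and citrate cycle count, against 4.77, 5.73 and 6.12 in oocytes given phthalate. The 3 phthalate values lay below the 3 water values. The group sums gave 6.98 with water and 5.59 with phthalate, so that phthalate minus water was -1.39, and -1.06 without phthalate oocyte 1. This ratio was for the most part that of Ldhb. Without Ldhb, the ratio was 0.863, 0.680 and 0.690 in water and 0.786, 0.658 and 0.656 in phthalate oocytes. The groups then overlapped, and the sums gave 0.746 and 0.694. The other 14 glycolytic members together took 0.106% of the counts with water and 0.108% with phthalate, with overlapping intervals (0.0965 to 0.116 and 0.0984 to 0.119).

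**Figure D2:**
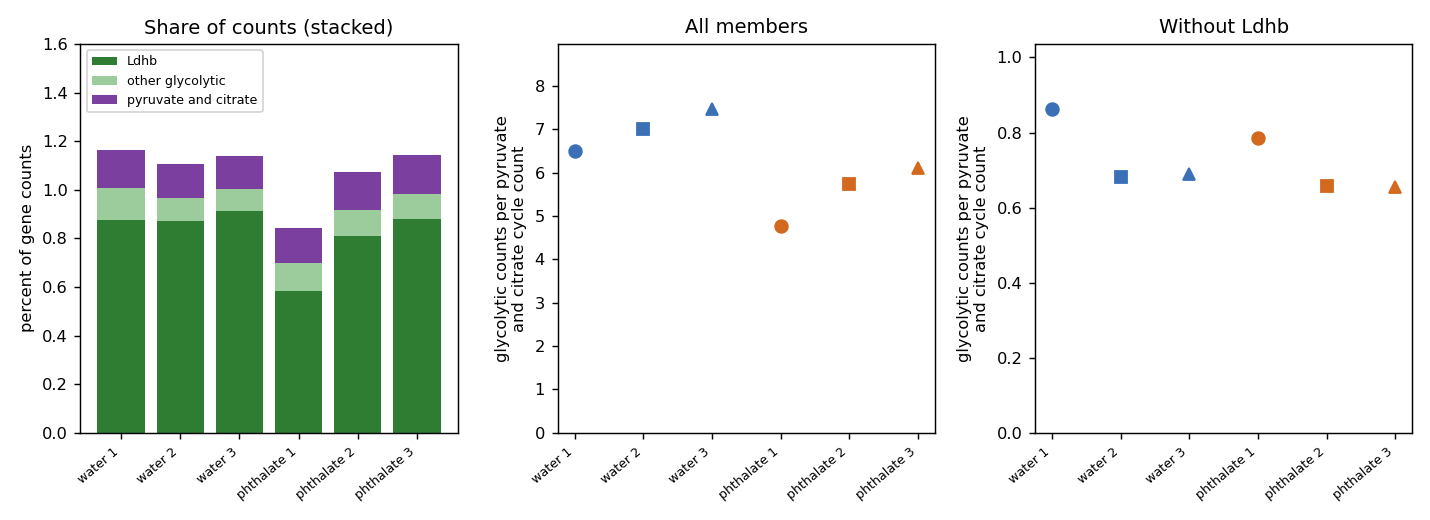
Left, share of gene counts in Ldhb, the other glycolytic members and the pyruvate and citrate cycle members, stacked, per oocyte library; middle and right, glycolytic counts per pyruvate and citrate cycle count with all members and without Ldhb. With all members the 3 phthalate values (4.77 to 6.12) lie below the 3 water values (6.51 to 7.48), and without Ldhb the groups overlap.

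Gene by gene, the groups were compared by the log2 ratio of summed counts, phthalate over water, scaled by TMM (a factor that aligns most genes between libraries). Of the 38 members, 20 passed the filter on low counts, 8 glycolytic and 12 of pyruvate oxidation, citrate cycle and shuttle. The 18 that did not pass had mean counts from 0 to 9.5. They were Hk1, Hk2, Pfkl, Pfkm, Gapdh, Pgam1, Ldha, Mpc1, Mpc2, Pdha1, Pdhb, Dlat, Idh1, Idh2, Idh3b, Suclg1, Suclg2 and Mdh2. The median log2 ratio was 0.0097 over the 8 glycolytic members and 0.15 over the 12 others, beside 0.0089 over all 4644 genes that passed. With every member that had a ratio, filtered or not, the medians were 0.019 (11 members) and 0.17 (22 members). The filtered medians differed by -0.14. The SD between oocytes within groups was 0.18 for the glycolytic median and 0.19 for the other. Combined as if independent these gave 0.26, but both medians come from the same libraries. The spread of the difference itself was not computed, so its size cannot be judged against 0.26. The difference was -0.33 when water oocyte 3 was left out. For phthalate oocytes 1 and 3 it was -0.35 and -0.27. Leaving out water oocyte 1, water oocyte 2 or phthalate oocyte 2 gave -0.15, -0.17 and -0.14. Leaving out water oocyte 3 gave a glycolytic median of -0.21. Of all genes that passed, 90% had log2 ratios between -0.72 and 0.66. The share of the ribosomal RNA row Rn45s also separated the groups, at 2.02% to 2.35% of counts with water and 2.89% to 3.54% with phthalate. With Rn45s left out of the totals, the share differences of the class sums were -0.114 percentage points for glycolytic members and 0.0158 for the others, against -0.121 and 0.0138. Its part in the ratios of single genes was not tested.

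At least a 1.5-fold difference was taken as a call. Toward phthalate 1 of the 20 members passed it, Idh3g, against 6.96% of all genes that passed the filter. Toward water 3 members passed it, Pgk1, Eno1 and Mdh1, against 8.14% of all genes. In either direction 4 of 20 members passed, beside 15.1% of all genes. Those 4 averaged under 20 counts per library. Of all genes at that depth 25.5% passed, 11.3% toward phthalate and 14.2% toward water. Of genes averaging 20 counts or more 8.12% passed, 4.02% toward phthalate and 4.09% toward water, and none of the 13 members at that depth did with all oocytes. Of these, Fh1 passed toward phthalate without water oocyte 1 (0.98), without phthalate oocyte 1 (0.60) and with means over oocytes (0.64), and Dld toward water without phthalate oocyte 2 (-0.70). The 4 are thus among the 7 members that passed the filter with an average under 20 counts.

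Idh3g, a regulatory subunit of the NAD-linked isocitrate dehydrogenase, had 7.4, 26.6 and 59.9 CPM with water against 83.2, 57.6 and 54.6 with phthalate. The groups overlapped, because water oocyte 3 lay above phthalate oocytes 2 and 3. Its phthalate libraries were enough for it to pass the filter and its water libraries alone were not, so the filter favoured this call. Its log2 ratio was 1.05 (95% interval 0.048 to 2.11) from 27 and 53 counts, a 2.06-fold difference, and ranged from 0.59 without water oocyte 1 to 1.90 without water oocyte 3. Its partner Idh3a had a log2 ratio of 0.14 (-0.63 to 0.91).

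Mdh1, the cytosolic malate dehydrogenase gene, had 100.2, 79.8 and 70.5 CPM with water against 15.9, 61.0 and 83.7 with phthalate. Its log2 ratio of -0.59 (-1.42 to 0.22) lay just past the 1.5-fold limit and was -0.18 without phthalate oocyte 1. The groups overlapped, with phthalate oocyte 1 the lowest. Fh1 was just inside the limit, at 0.53 (-0.12 to 1.18). Pgk1, which encodes the first ATP-forming kinase of glycolysis, had 85.3, 46.5 and 35.2 CPM against 19.8, 30.5 and 54.6, and its log2 ratio was -0.62 (-1.68 to 0.38). Eno1 had 100.2, 23.3 and 38.8 CPM against 35.7, 47.5 and 14.55, with a log2 ratio of -0.66 (-1.76 to 0.37). Without water oocyte 1, which was the highest for both, Pgk1 had a ratio of -0.22 and Eno1 of 0.093. Without that oocyte none of Mdh1, Pgk1 and Eno1 passed 1.5-fold. Pgk1 also missed it without phthalate oocyte 1 (-0.35) or 2 (-0.50), and Eno1 without phthalate oocyte 3 (-0.36). The groups overlapped for both. With the counts of its copy Eno1b added, which was done after the values were seen, Eno1 had 64 counts with water and 49 with phthalate, a log2 ratio of -0.31 (-1.13 to 0.49).

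The counting interval held no 0 for 2 members, Idh3g and Ldhb, beside 9.19% of all genes. With counts as deposited, not halved, it held no 0 for Fh1 and Mdh1 as well, 4 members beside 22.7% of all genes. For Ldhb the CPM was 8739, 8733 and 9109 with water against 5827, 8097 and 8781 with phthalate. Phthalate oocyte 3 lay above water oocytes 1 and 2, and phthalate oocyte 1 was the lowest. The log2 ratio was -0.20 (-0.27 to -0.13), a 1.15-fold difference, and it was -0.039 without phthalate oocyte 1 and -0.36 without phthalate oocyte 3. The width of this interval reflects the large count of the gene and not the spread between oocytes.

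Among the 20 members, the groups did not overlap in CPM for Ogdh alone. That was 1 member with phthalate above water, beside 4.52% of all genes, and 0 members below, beside 5.49%, or 10.0% of genes in either direction. Ogdh had 77.9, 79.8 and 70.5 CPM with water against 87.2, 94.9 and 101.8 with phthalate. Its log2 ratio was 0.34 (-0.37 to 1.05), a 1.26-fold difference within the counting interval. With libraries scaled by TMM or by DESeq2 size factors, Gpi1 joined Ogdh, which made 2 members, beside 5.15% and 4.91% of all genes. Pkm was the member with the narrowest interval after Ldhb, with a log2 ratio of 0.0061 (-0.25 to 0.26).

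**Figure D3:**
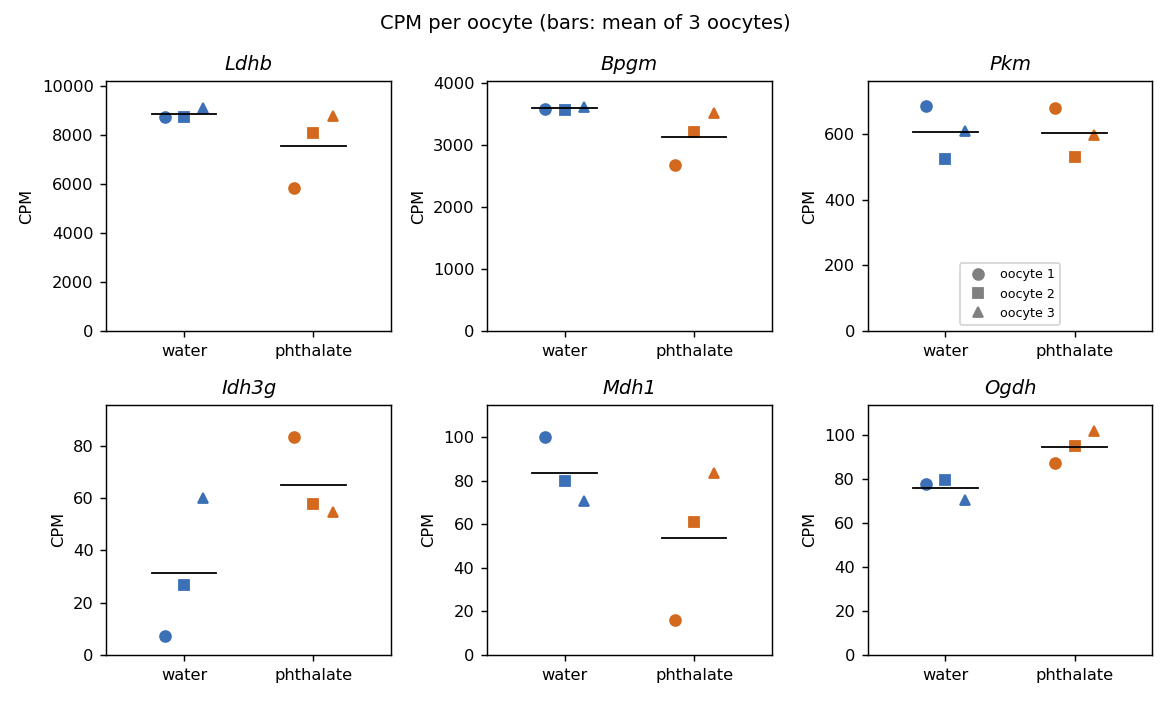
CPM in each of the 3 water and 3 phthalate oocytes for Ldhb, Bpgm, Pkm, Idh3g, Mdh1 and Ogdh, with bars at the mean of 3 oocytes and axes from 0. Phthalate oocyte 1 is the lowest of the 6 for Ldhb (5827), Bpgm (2676) and Mdh1 (15.9), and the groups do not overlap for Bpgm and Ogdh.

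**Figure D4:**
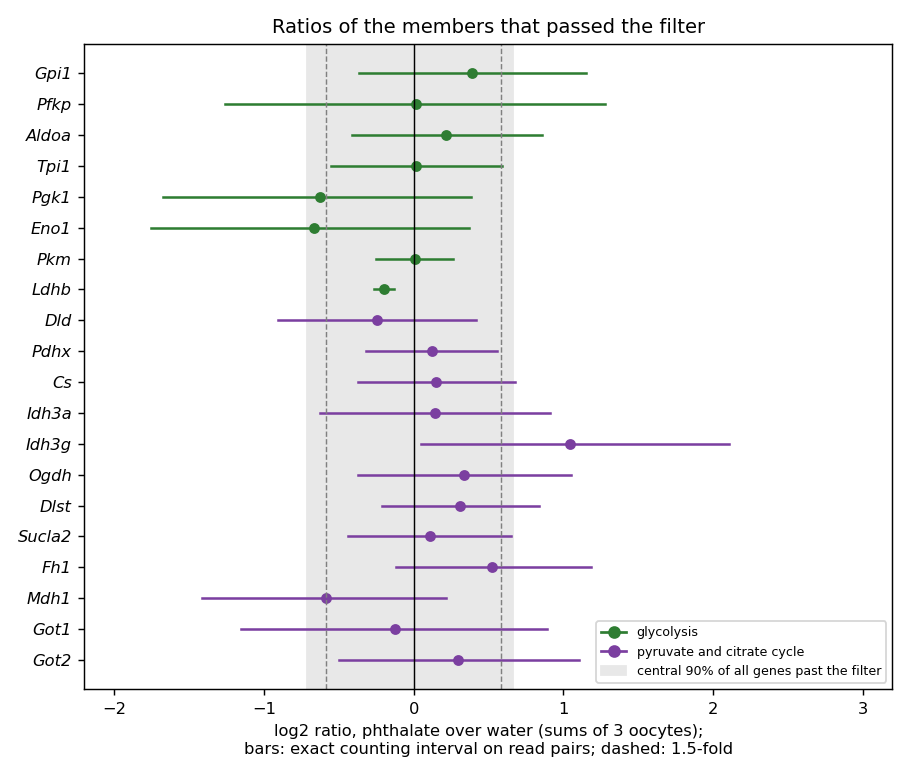
Log2 ratio of phthalate over water for the 20 members that passed the filter, with 95% exact counting intervals on read pairs, dashed lines at 1.5-fold and, in grey, the central 90% of all 4644 genes. Idh3g (1.05) lies past the upper line, Pgk1 (-0.62), Eno1 (-0.66) and Mdh1 (-0.59) past the lower one, and the intervals of Idh3g and Ldhb alone leave out 0.

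Around these members, 59 genes of the same pathways were examined as a list: uptake, isozymes, regulators, other enzymes of the cycle, shuttle carriers and the pentose phosphate path. Of these, 13 had 0 counts in every library and 19 passed the filter. Their median log2 ratio was 0.034, beside 0.0089 over all genes. Toward phthalate 2 of the 19 passed 1.5-fold and toward water 4 did, beside 6.96% and 8.14% of all genes. The 2 were Slc16a1, a carrier of lactate and pyruvate (0.77, -0.43 to 2.03), and Ldhd (1.17, 0.056 to 2.38). The 4 were Tigar, which encodes a phosphatase that lowers glycolytic flux (-0.90, -2.01 to 0.14), Sdhd, an anchor subunit of succinate dehydrogenase (-0.98, -1.97 to -0.042), Me2, a mitochondrial malic enzyme (-0.74, -1.52 to 0.0089), and Slc25a1, the citrate carrier (-0.66, -1.83 to 0.44). These genes other than Me2 were named after their values were seen. Of the 6, only Me2 had a mean count of at least 20. Of all genes that passed the filter with a mean count under 20, 11.3% passed 1.5-fold toward phthalate and 14.2% toward water. Ldhd and Tigar passed 1.5-fold with any 1 oocyte left out. Both passed the filter only through the group where they were high, so the filter favoured these calls. For Ldhd this was phthalate (50.9 to 59.5 CPM, against 13.3 to 31.7), and for Tigar water (42.3 to 77.9 CPM, against 23.8 to 33.9). Slc16a1 did not without water oocyte 3 (0.58) or phthalate oocyte 2 (0.43), and Sdhd did not without phthalate oocyte 1 (-0.58). Me2 did not without water oocyte 3 (-0.51) or phthalate oocyte 3 (-0.53), and Slc25a1 did not without water oocyte 2 (-0.54), water oocyte 3 (-0.51) or phthalate oocyte 2 (-0.50).

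Among the 9 neighbours that averaged 20 counts or more, the largest ratios toward phthalate were those of Taldo1, a transaldolase gene of the pentose phosphate path (0.34), and the succinate dehydrogenase genes Sdhc (0.12) and Sdha (0.048). Toward water they were those of Me2, Bpgm (-0.17, -0.28 to -0.064) and Me1, the cytosolic malic enzyme (-0.14). Of the 19 neighbours, 3 (Bpgm, Tigar and Sdhd) had every phthalate CPM below every water CPM, beside 5.49% of all genes, and 1 (Ldhd) above, beside 4.52%. Tigar and Ldhd passed the filter only through the group where they were high, which favours groups that lie apart. The Bpgm ratio was -0.063 without phthalate oocyte 1. G6pdx, the first enzyme of the pentose phosphate path, had 545 counts in water and 528 in phthalate oocytes, and at 240.7 CPM per kb its level was close to that of Pkm. Slc2a1, a glucose transporter gene, had 75 and 70 counts, while Slc2a3, Slc2a4 and Slc2a8, which encode other glucose transporters, had 2 counts between them, all in Slc2a4.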

How the data were processed

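Per the labels' protocols, RNA of single oocytes was primed with oligo(dT), extended by template switching (Smart-seq3), amplified by PCR and sequenced as 150 bp read pairs. The authors deposited raw whole-number counts per gene symbol for 25239 genes and 92 ERCC spike-ins. Per the submitters' processing notes, cutadapt, Trimmomatic, HISAT2 and DESeq2 were used with build mm10. The counting tool, the annotation, strand and molecular identifiers are not given in the sources used here.

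ERCC counts were left out. The filter was filterByExpr of edgeR 4.0.16 (minimum count 10, minimum total 15), and it kept 4644 genes. Counts of a group were summed and divided by TMM-scaled totals. A sum below 3 was set to 3 counts, and no ratio was given where both sums were at most 3. Intervals are exact (Clopper-Pearson) at 95% on counts halved to read pairs. The calculation was tested on simulated pairs with counting error alone, so that test says nothing on the spread between libraries. CPM uses library totals, and lengths come from GENCODE M21. Copies were found with BLAST 2.17.0 (at least 150 bases, 95% identity) and, like the motifs, were looked up after the counts were seen. None of the 6 pairs of libraries within a group was a copy, with a chi-square per degree of freedom of 1.17 to 2.31. These values show spread beyond counting error, and the intervals do not include that spread.

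The members and lists were chosen with earlier results of these data known. Members with a mean count of at least 20 were described in every library, with others named after their values were seen where a count of 5 or fewer called for it. From the list of pathway neighbours, the 3 largest ratios in each direction with a mean count of at least 20 were named. Alternatives were DESeq2 1.42.0 size factors, library totals, means over oocytes of log2 (CPM + 1), other filters and folds, and each oocyte left out.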

Additional observations from a re-analysis of the deposited data

How the results depend on the processing

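No paired analysis was possible because no test was run, each group being taken as 1 sample, and the labels do not say whether equal oocyte numbers share an animal, culture or day. Of 180 ratios of members under scaling, averaging and left-out oocytes, 21 had the other sign than the reported value. The ratio of Eno1, called toward water, was 0.093 without water oocyte 1 and -1.05 without phthalate oocyte 2, and the cause was not tested.

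With each oocyte left out, the median log2 ratio ranged from -0.21 to 0.10 for glycolytic members, from 0.10 to 0.26 for pyruvate and citrate cycle members and from -0.063 to 0.089 for the pathway neighbours. The difference of the class medians ranged from -0.35 to -0.14. Members called toward phthalate numbered 1 to 3 and toward water 0 to 3, and called neighbours 1 to 4 and 2 to 4, beside 7.6% to 9.41% and 8.46% to 10.5% of all genes. The share difference ranged from -0.177 to -0.0441 percentage points for glycolytic members and from 0.00988 to 0.0196 for the others. The ratio of the class sums, phthalate minus water, ranged from -1.67 to -1.06.

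Means over oocytes called 3 members (Pfkp, at 1.17, Idh3g and Fh1) and 1 neighbour toward phthalate, beside 7.04% of all genes. Without a filter, 5 of 33 members and 5 of 38 neighbours with a ratio were called toward phthalate, beside 15.2% of all genes with a ratio, and 13 neighbours toward water, beside 17.8%. At a mean count of at least 20, 0 members were called in either direction, and 0 neighbours toward phthalate and 1 toward water. A ratio of 5 to 4 called 4 members toward phthalate, beside 18.9% of all genes, and 3 toward water, beside 18.5%. A fold of 2 called 1 toward phthalate, beside 1.14%, and 0 toward water, beside 1.64%. Members with groups apart toward phthalate numbered 2 under TMM and DESeq2 size factors (Gpi1 and Ogdh) and without a filter (Hk2 and Ogdh, beside 3.6% of genes with a count). Leaving out Ldhb, the member with the most counts, the glycolytic share differed by 0.0022 percentage points and the ratio of class sums by -0.052, or by -0.064 when the most abundant member of each class was left out. Per kb the difference of that ratio was -2.66. The median transcript length moved 15 of 20 member levels out of their range over oocytes.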

Other observations

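Ldhb and Bpgm were compared after their values were seen, as the genes with the most counts among the members and their pathway neighbours. Per kb, the level of Ldhb was 4.15, 4.17 and 4.29 times that of Bpgm in water oocytes 1, 2 and 3, and 3.71, 4.29 and 4.26 times in phthalate oocytes 1, 2 and 3. Phthalate oocyte 1 had the lowest CPM of both genes. The 6 ratios thus lay within a narrower range than the ratios of Ldhb to Pkm, which ran from 16.0 to 31.2, with 156 to 184 counts of Pkm per library and a larger counting error. The ratio of the former pair was 1.79 in the sums when the median transcript length was used, so its size rests on the length while its spread over libraries does not.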
